A study of Saccharomyces cerevisiae W303 with 24 samples.

Results

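The SNZ and SNO genes of budding yeast are 6 genes in 3 neighbouring pairs: SNZ1 and SNO1 on chromosome XIII, SNZ2 and SNO2 on chromosome XIV, and SNZ3 and SNO3 on chromosome VI. They were found on the arrays by their open reading frames (YMR096W, YMR095C, YNL333W, YNL334C, YFL059W and YFL060C), and all 6 of 6 were present among 6176 nuclear open reading frames. In each pair the SNO gene lies on the Crick strand and the SNZ gene next to it on the Watson strand, so that both are read away from the stretch between them. The 6 genes were chosen by their log2 ratios on these same arrays, so their levels in the strains are described with no test.

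Snz and Sno proteins form the enzyme that makes pyridoxal phosphate, the active form of vitamin B6. The Sno subunit is a glutaminase that releases ammonia from glutamine, and the Snz subunit is the synthase that builds the vitamin from sugar phosphates and that ammonia. SNZ1 and SNO1 are known for their expression in stationary phase and under nutrient limitation, whereas SNZ2, SNO2, SNZ3 and SNO3 lie near chromosome ends beside THI genes and are known to respond to thiamine. The pyrimidine part of thiamine (vitamin B1) is made in yeast from pyridoxal phosphate by the Thi5 family of proteins.

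RNA was measured on 24 dual-colour arrays of haploid W303 yeast grown in rich medium (YEPD). There were 12 disomes-ubp6∆ and 12 disomes. A disome carries an extra copy of chromosome I, II or V or of one of the chromosomes VIII to XVI, and a disome-ubp6∆ in addition lacks UBP6, which encodes a deubiquitinating enzyme of the proteasome. Each strain was set against a reference labelled wild-type on 1 array, so strains are the replicates and a single strain has none. All values below are log2 ratios of strain over reference unless another quantity is named. A spot counts as well above background by the flag of the scanner software, and the processed signal is the brightness of a spot in 1 dye after background subtraction and dye normalization.

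The labels give the strain in Cy5 on all arrays. On the 12 disome-ubp6∆ arrays, however, the duplicated chromosome had a mean log2 Cy5 over Cy3 of -0.98 to -0.59, and the deposited value table ran opposite to Cy5 over Cy3 there (r of -0.999 to -0.990, against 0.976 to 1.000 on the disome arrays). The sign was therefore turned on these arrays, against the dyes in the labels. The strain was thus taken as Cy5 in every disome and as Cy3 in every disome-ubp6∆, so dye and genotype cannot be told apart. As labelled, each disome-ubp6∆ array would have had r of -0.76 to -0.15 with the array of the same disome, and every disome-ubp6∆ ratio given here would have the opposite sign. After turning, the duplicated chromosome had a mean of 0.59 (XIV) to 0.98 in the disomes-ubp6∆ and of 0.68 to 0.99 in the disomes.

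Other differences between the arrays bear on the values. The processed signal of UBP6 on the disome-ubp6∆ arrays was 24.2 to 268 in the strain and 12.9 to 65.1 in the reference, against 1235 to 3924 in the strain and 1842 to 4474 in the reference on the disome arrays. The reference of the disomes-ubp6∆ was thus low in UBP6 as well. With the sign turned, UBP6 was higher in the strain than in that reference on all 12 arrays (mean 1.60, lowest 0.60, highest 3.78), so the deleted gene runs against the turned direction, at signals far below those of the disome arrays. Moreover, a difference between the references cannot be told apart from a difference between the genotypes. LYS2, an auxotrophic marker gene, averaged 3.22 in the disomes-ubp6∆ and 2.70 in the disomes. ADE1, another marker, was above the reference in every strain tested (lowest 7.12 in the disomes-ubp6∆ and 2.97 in the disomes), but its reference signal of 5.08 to 36.0 and 13.6 to 77.6 was too dim for the size of these ratios to be read. With the sign turned, both markers thus ran the same way in both genotypes. By the file headers the arrays came from 4 slides: slide 1 with 8 arrays (disomes I to XII), slide 2 with 3 (disomes XIII, XIV and XV), slide 3 with 5 (disomes-ubp6∆ I, II, V and VIII and disome XVI) and slide 4 with 8 (disomes-ubp6∆ IX to XVI). Between 5837 and 6081 genes were measured per disome-ubp6∆ and between 5288 and 6132 per disome. The number of arrays limits the precision.

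SNZ1 and SNO1 varied most from strain to strain. SNZ1, the synthase subunit induced in stationary phase, ranged over 10.4-fold among the 11 disomes-ubp6∆ other than XIII and over 7.12-fold among the 11 such disomes. In the disomes-ubp6∆ its lowest value was -0.17 (I), its median 0.61 and its highest 3.20 (XI). In the disomes the lowest was 0.04 (II), the median 0.42 and the highest 2.88 (XIV). SNZ1 was above 1 in 3 of the 11 disomes-ubp6∆ and in 5 of the 11 disomes, and the ranges of the genotypes overlapped. The means were 0.86 ± 1.09 and 0.96 ± 1.08 (SD, n = 11 each).

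The high values of SNZ1 fell on the same chromosomes in both genotypes for XI and XIV but not for VIII. With chromosome XI duplicated, SNZ1 was 3.20 in the disome-ubp6∆ and 2.84 in the disome, 9.21-fold and 7.16-fold levels. With chromosome XIV duplicated it was 1.90 in the disome-ubp6∆ and 2.88 in the disome. With chromosome VIII duplicated it was 2.03 in the disome-ubp6∆ but 0.42 in the disome, the largest difference between paired strains (1.61). With chromosome V, IX or XII duplicated it was at -0.12, 0.75 and 0.94 in the disomes-ubp6∆, against 1.02, 1.29 and 1.56 in the disomes. SNZ1 lies on none of these chromosomes. It was at -0.11 and 0.11 in the disome-ubp6∆ and the disome with an extra chromosome XV.

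The median gap between its 2 spots was 0.03 on slide 4 and 0.03 on the other slides, and SNZ1 was well above background in both dyes on 24 of 24 arrays, though only 1 of the 2 spots could be used in disomes II, VIII and XI. In XI-ubp6∆ its processed signal was 29936 in the strain and 3251 in the reference, and in disome XI it was 11960 in the strain and 1672 in the reference. The reference signal of SNZ1 itself was 5413 to 6917 on the 4 disome-ubp6∆ arrays of slide 3 and 3027 to 4038 on those of slide 4, against 1672 to 3678 on the disome arrays of slide 1 other than disome II, where 1 spot failed. The part of these reference levels in the ratios was not tested.

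SNO1, the glutaminase partner of SNZ1, followed the same strains. In the disomes-ubp6∆ its lowest value was -0.75 (XV), its median 0.32 and its highest 2.87 (XI). In the disomes it was measured in 8 strains besides XIII, with a lowest value of 0.40 (XV), a median of 1.90 and a highest of 4.19 (XI). SNO1 was 1.19 in XIV-ubp6∆ and 3.46 in disome XIV, and 2.37 in VIII-ubp6∆ and 1.56 in disome VIII. Every measured disome was above 0, whereas 4 of the 11 disomes-ubp6∆ lay below. These counts are not alike. On slide 1 only 2 of 16 reference spots but 9 of 16 strain spots of SNO1 were well above background. A disome of slide 1 was thus measured mainly where its strain signal was bright, while all 11 disomes-ubp6∆ were read in both dyes.

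SNO1 was a dim probe, and its ratios in the disomes were the less certain ones. Of the 24 arrays, 16 had it well above background in both dyes on every spot used, 2 on 1 spot, 3 only in 1 dye, and 3 (disomes I, IX and X) in neither. For those 3 measured in the strain alone only a lower bound can be given, set by the lowest reference signal well above background on that array. The bound was at least 5.10-fold in disome XI, at least 4.50-fold in disome XII and at least 2.12-fold in disome VIII. The mean over 11 disomes-ubp6∆ was 0.56 ± 1.18 (SD). The mean over 8 disomes was 2.07 ± 1.32 (SD), and over the 5 disomes read in both dyes it was 1.55 ± 1.20. In XI-ubp6∆, where both dyes were readable, the processed signal of SNO1 was 597 in the strain and 81.5 in the reference.

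**Figure D1:**
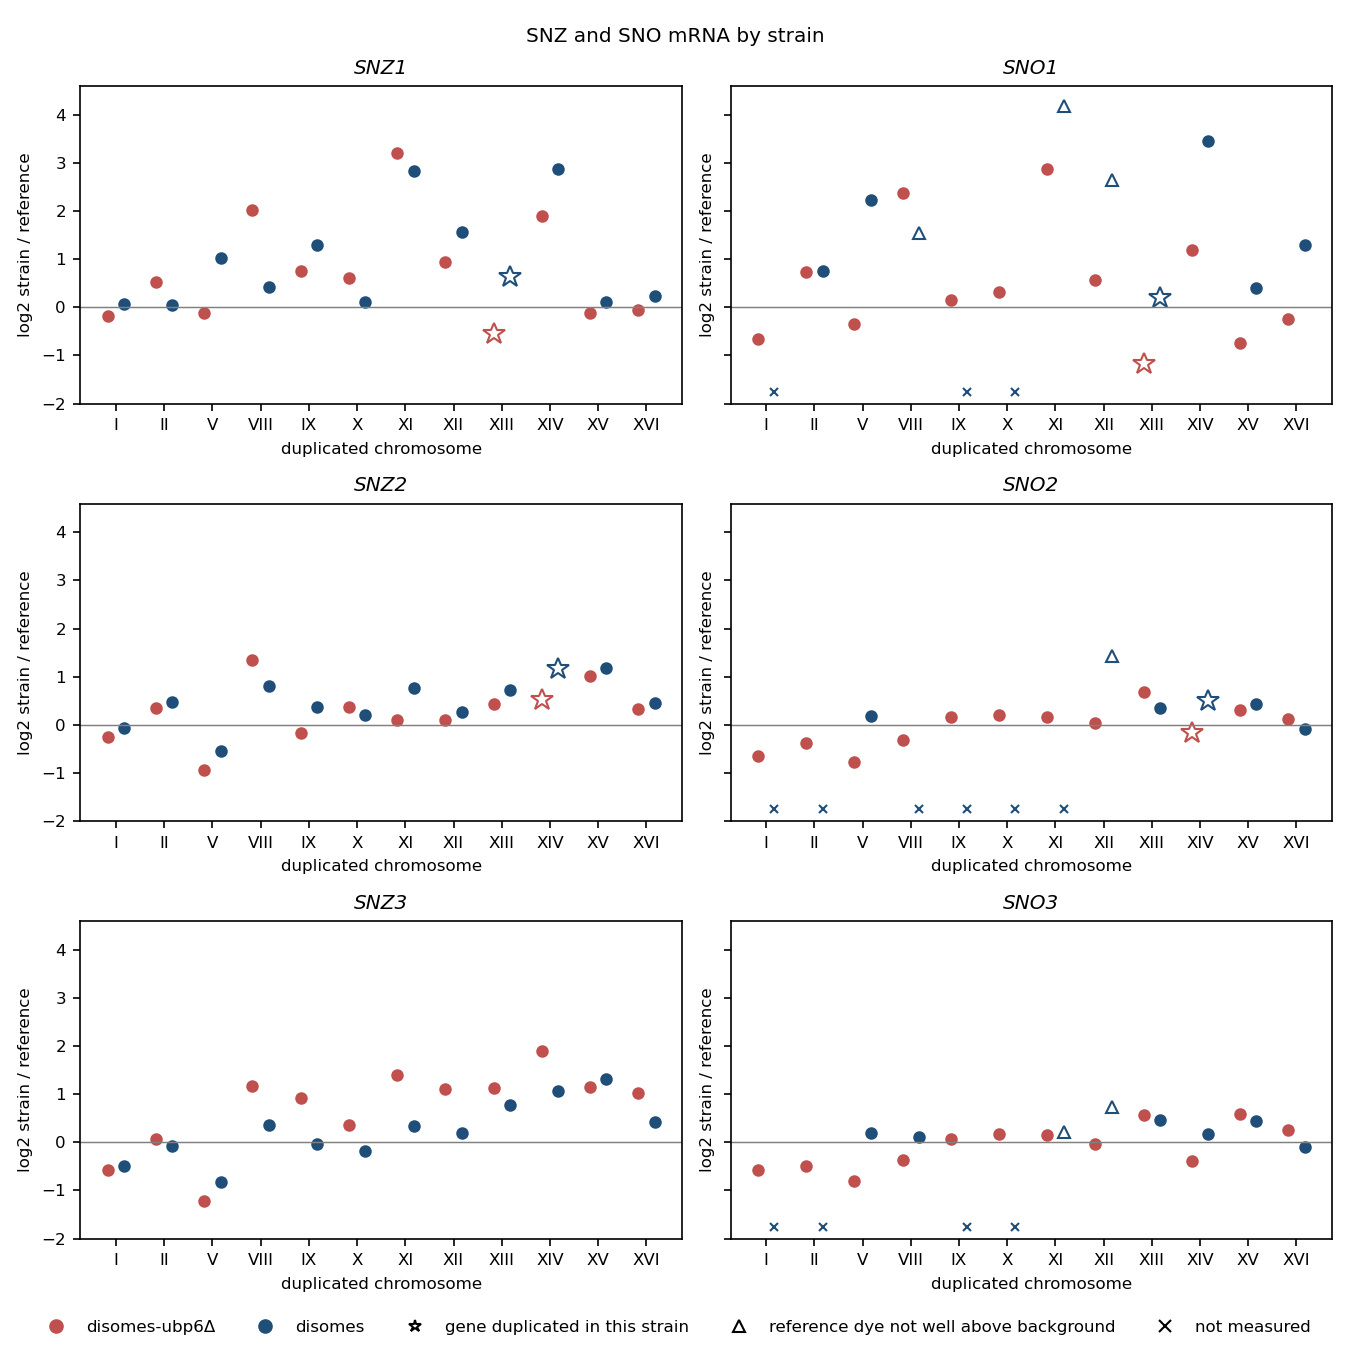
Log2 ratio of strain over reference (vertical axis) of each SNZ and SNO gene by duplicated chromosome (horizontal axis), with disomes-ubp6∆ in red to the left of disomes in blue, 1 array per point. Stars mark the strain that carries the gene in an extra copy, open triangles arrays whose reference dye was not well above background, and crosses arrays without a measurement. SNZ1 and SNO1 are highest in XI-ubp6∆ and VIII-ubp6∆ among the disomes-ubp6∆ and in disomes XI and XIV among the disomes, with SNZ1 at 3.20 and 2.03 and at 2.84 and 2.88.

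The strains with an extra copy of SNZ1 and SNO1 did not stand out upward. In XIII-ubp6∆, SNZ1 was at -0.55, below all 11 other disomes-ubp6∆, and SNO1 at -1.18, also below all 11. In disome XIII, SNZ1 was at 0.64 and SNO1 at 0.20, with 6 of 11 other disomes below it for SNZ1 and 0 of 8 for SNO1. The genes of chromosome XIII averaged 0.90 in XIII-ubp6∆ and 0.99 in disome XIII. Only 0.421% of the 475 measured genes of that chromosome lay below SNZ1 in XIII-ubp6∆, and 15.1% of 484 did in disome XIII. Relative to the mean of the other strains of its genotype, SNZ1 was 1.41 log2 units lower in XIII-ubp6∆ (0.86 in the others) and 0.33 lower in disome XIII (0.96 in the others), while the SD among the others was 1.09 and 1.08.

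Of the 4 genes around the SNZ1 and SNO1 pair, 3 were above 0.5 in both strains with the extra chromosome XIII and lacked the peak of SNZ1 with chromosome XI. MTG1, ATP25 and UTP15, for a mitochondrial GTPase, a mitochondrial protein needed for ATP synthase assembly and a ribosome biogenesis factor, were at 0.85, 0.92 and 1.44 in XIII-ubp6∆ and at 0.63, 1.20 and 1.01 in disome XIII. In XI-ubp6∆ they were at -0.12, -0.56 and 0.27, against 0.06, -0.08 and -0.17 in disome XI. CTF13, a kinetochore gene next to SNO1 whose reading direction runs toward it, was different. CTF13 was at 2.90 in XI-ubp6∆ and 2.81 in XIV-ubp6∆ and averaged 1.42 ± 1.15 over 8 measured disomes-ubp6∆. In the strains with an extra chromosome XIII it was at -0.12 in the disome-ubp6∆ and 2.54 in the disome. It was measured in only 3 disomes besides XIII.

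SNZ2, a synthase gene of a chromosome end, moved over a narrower range. In the disomes-ubp6∆ its lowest value was -0.93 (V), its median 0.32 and its highest 1.36 (VIII). In the disomes its lowest was -0.54 (V), its median 0.46 and its highest 1.19 (XV). The disomes-ubp6∆ averaged 0.24 ± 0.61 and the disomes 0.42 ± 0.47 (SD, n = 11 each). The extremes fell on like chromosomes in both genotypes: V was the lowest in each, and XV was at 1.01 in the disome-ubp6∆ and 1.19 in the disome.

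With an extra copy of its own chromosome, SNZ2 was at 0.51 in XIV-ubp6∆ and 1.16 in disome XIV, 0.27 and 0.74 above the mean of the other strains of the same genotype. It lay above 9 of 11 other disomes-ubp6∆ and 10 of 11 other disomes. Disome XIV was on slide 2, whose other 2 disomes (XIII and XV) averaged 0.95 for SNZ2 without an extra copy, against 0.28 for the 8 disomes of slide 1. Slide and extra copy thus cannot be told apart in disome XIV. The genes of chromosome XIV averaged 0.59 in XIV-ubp6∆, the lowest mean of all duplicated chromosomes, and 0.91 in disome XIV. At the left end of the chromosome (open reading frames YNL300 and up), where SNZ2 and SNO2 lie, the median gene was at 0.37 in XIV-ubp6∆ and 0.88 in disome XIV. On the rest of the left arm the median gene was at 0.49 and 0.87, and on the right arm at 0.80 and 0.83. By the mean, the left end and the rest of that arm were at 0.56 and 0.53 in XIV-ubp6∆. The level of SNZ2 in each strain was thus near that of its chromosome, with 48.9% of the measured genes below it in XIV-ubp6∆ and 77.2% in disome XIV.

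SNO2, the glutaminase gene beside SNZ2, did not follow it in the same way. Over the 11 disomes-ubp6∆ it ranged between -0.76 (V) and 0.68 (XIII), with a mean of -0.04 ± 0.43 (SD). In the disomes it was measured in only 5 strains besides XIV: 0.17 in V, 1.43 in XII, 0.34 in XIII, 0.43 in XV and -0.09 in XVI. Their mean was 0.46 ± 0.58 (SD), and 0.21 without disome XII. The value in disome XII came from 1 spot whose reference dye was not well above background. On slide 1 only 2 of 16 reference spots of SNO2 were well above background, with processed signals of 21.5 to 57.0, against 272 to 333 on slide 2. In its own strains SNO2 was at -0.16 in XIV-ubp6∆ and 0.50 in disome XIV, below most of that chromosome (4.69% and 12.3% of genes lay below it).

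SNZ3, the synthase gene of chromosome VI, which no strain duplicates, was the only one of the 6 genes with a higher mean in the disomes-ubp6∆ than in the disomes. In the disomes-ubp6∆ its lowest value was -1.23 (V), its median 1.07 and its highest 1.90 (XIV). In the disomes its lowest was -0.83 (V), its median 0.27 and its highest 1.31 (XV). The means were 0.70 ± 0.89 and 0.24 ± 0.62 (SD, n = 12 each). The disome-ubp6∆ was above the disome of the same chromosome in 9 of 12 pairs, by 0.46 ± 0.49 on average.

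This difference in SNZ3 went along with the slide and with the spot. The 4 disomes-ubp6∆ of slide 3 averaged -0.14 and the 8 of slide 4 averaged 1.13, whereas the 8 disomes of slide 1 averaged -0.09, the 3 of slide 2 averaged 1.05 and disome XVI on slide 3 was at 0.43. On slide 4 the median gap between the 2 spots of SNZ3 was 0.52 log2 units, against 0.04 on the other slides. There 1 spot, called spot 2, gave the higher ratio on 7 of 8 arrays and had 1.07 to 2.56 times the reference signal of spot 1. On those 8 arrays spot 1 averaged 0.89 and spot 2 averaged 1.36. The reference signal of SNZ3 was 5011 to 9152 on slide 1, against 1407 to 1707 on slide 2. Why the spots and slides differ was not tested.

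**Figure D2:**
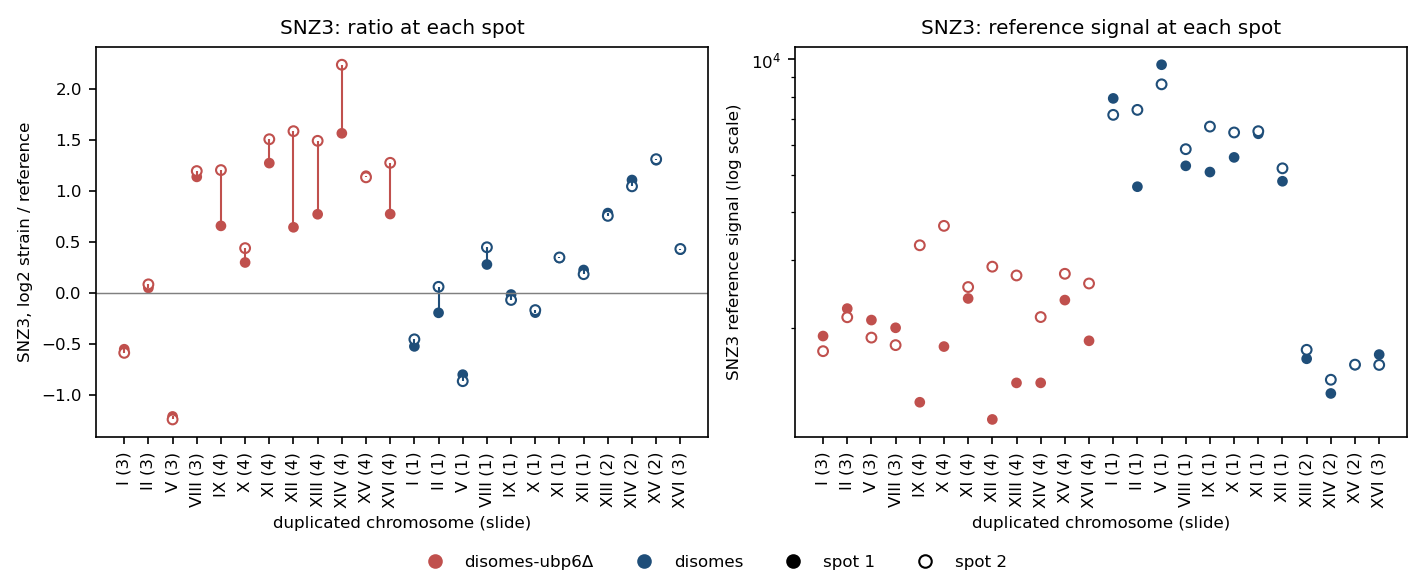
SNZ3 at each of its 2 spots, as the log2 ratio of strain over reference (left) and as the processed reference signal on a log axis (right), for each strain with the slide number in brackets, disomes-ubp6∆ in red to the left of disomes in blue. Filled points are spot 1 and open points spot 2. On slide 4 the spots lie apart, with averages of 0.89 and 1.36, and on slide 1 the reference signal is 5011 to 9152.

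SNO3, the glutaminase partner of SNZ3, stayed near the reference. In the disomes-ubp6∆ it ranged between -0.80 (V) and 0.58 (XV) around a median of 0.01, with 6 of 12 strains above 0. In the 8 disomes in which it was measured it ranged between -0.10 (XVI) and 0.74 (XII) around a median of 0.20. Its mean was -0.07 ± 0.45 in the disomes-ubp6∆ and 0.28 ± 0.26 in the disomes, and 0.11 over the 6 disomes with both dyes well above background. On slide 3 the 4 disomes-ubp6∆ averaged -0.56, and on slide 4 the 8 disomes-ubp6∆ averaged 0.17, a gap larger than that between the genotypes.

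Pairs of the same duplicated chromosome gave the difference between genotypes for each gene. SNO1 was lower in the disome-ubp6∆ in 5 of the 5 pairs read in both dyes, with a mean difference of -1.44 ± 0.93 (SD). In pair II the values were nearly equal, 0.72 in the disome-ubp6∆ and 0.74 at the spot of the disome read in both dyes. Pairs I, IX and X had no value in the disome. Disomes of slide 1 were measured mainly where bright, so the count leans toward pairs with a high disome. In pairs VIII, XI and XII the disome gives only a lower bound, so neither the size nor always the direction is settled. Under another background correction, normexp with loess, SNO1 was lower in 5 of 8 pairs, with a mean difference of -0.31 ± 1.43. SNZ1 was lower in 7 of 11 pairs, with a mean difference of -0.10 ± 0.79. SNZ2 was lower in 9 of 11 pairs, with a mean difference of -0.18 ± 0.33. In the pairs read in both dyes SNO2 was lower in 2 of 4 and SNO3 in 3 of 6, with mean differences of -0.13 ± 0.57 and -0.13 ± 0.39. SNO1 was the only gene whose mean difference exceeded its SD among pairs, and under normexp with loess it did not. Both strains of a pair lay on different slides and in opposite dyes in every pair. Slide, dye and genotype therefore cannot be told apart in these differences.

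Within the family, SNZ1 and SNO1 went together from strain to strain. Taking each array as its deviation from the mean of its genotype, with the strain carrying the gene in an extra copy left out, r between SNZ1 and SNO1 was 0.96 over 19 arrays, 0.96 over 11 disomes-ubp6∆ and 0.96 over 8 disomes. Taken against the mean of its slide, r was 0.98. These are descriptions across arrays that share references, dyes and slides, and strains XI and XIV and VIII-ubp6∆ hold most of the range. In disomes VIII, XI and XII the reference of SNO1 was not well above background, so the size of their ratios is uncertain. SNZ2 and SNO2 gave r of 0.28 over 16 arrays, and SNZ3 and SNO3 gave 0.48 over 20. Against the slide means these were 0.57 and 0.06.

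The genes of the chromosome ends also went with their counterparts on the other chromosome. SNZ2 with SNZ3 gave r of 0.76 over 22 arrays (0.68 in the disomes-ubp6∆ and 0.93 in the disomes), and SNO2 with SNO3 gave 0.90 over 16. Against the slide means these were 0.84 and 0.79. Whether r differs between such pairs was not tested. SNZ1 gave r of 0.18 with SNZ2 and 0.47 with SNZ3 (0.61 in the disomes-ubp6∆ and 0.27 in the disomes), and SNO1 gave 0.22 with SNO2 and 0.29 with SNZ3. SNZ2 and SNZ3 are near-identical genes, as are SNO2 and SNO3. No probe sequences were used here, so a signal at one may hold RNA of the other, and the members of each such pair are uncertain as separate genes. On slide 4 SNZ3 was above SNZ2 in 7 of 8 disomes-ubp6∆ (XIV-ubp6∆ included), with a mean difference of 0.79 over the 8. There the 2 spots of SNZ3 lay apart, at mean differences from SNZ2 of 0.56 and 1.03. On the 4 disome-ubp6∆ arrays of slide 3 SNZ3 was below SNZ2 on all 4, with a mean difference of -0.27. In the disomes it was above SNZ2 in 0 of 8 on slide 1 (mean difference -0.37), and on slide 2 the mean difference was 0.03. The difference thus went along with the slide, and whether the probes read separate genes was not tested.

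**Figure D3:**
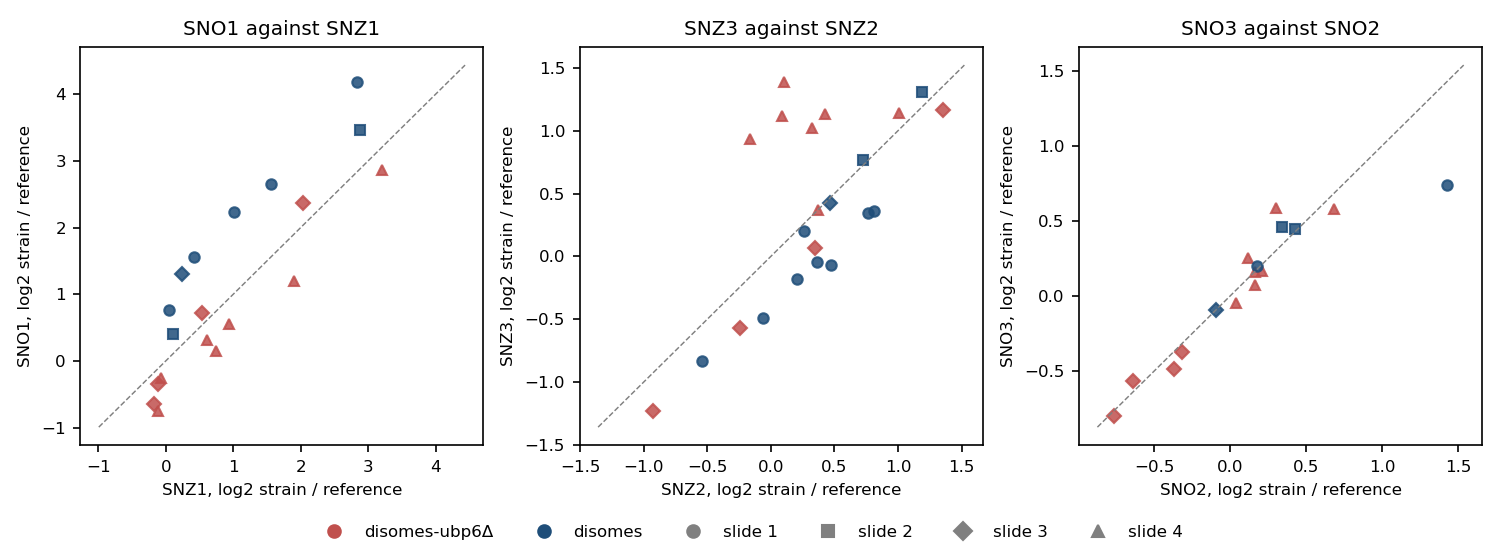
Log2 ratios of strain over reference of SNO1 against SNZ1, SNZ3 against SNZ2 and SNO3 against SNO2, 1 array per point, with disomes-ubp6∆ in red, disomes in blue and slides as marker shapes; the dashed line marks equal ratios and strains carrying an extra copy of a plotted gene are left out. SNO1 follows SNZ1 (r of 0.96), and the slide 4 arrays lie on or above the line for SNZ3.

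Of 6 genes of chromosome VI at the SNZ3 and SNO3 pair that have a relative at the SNZ2 and SNO2 pair, 4 were above 1 in disome XIV, in which only the relative is in an extra copy, and 2 (SNO3 and AAD6) were not. Of the 4, DDI3 and COS4 were highest in disome XIV among the disomes, whereas SNZ3 was higher in disome XV (1.31) and THI5 in disome X (1.36). In XIV-ubp6∆ only SNZ3 and COS4 were above 1. SNZ3 was above 1 in 7 of the 12 disomes-ubp6∆ and in 2 of the 12 disomes, and its 2 spots in XIV-ubp6∆ gave 1.57 and 2.24. Disome XIV was on slide 2, whose 3 disomes averaged 1.05 for SNZ3, so slide and extra copy cannot be told apart there. Any share of the extra copy in these values was not tested. SNZ3 and SNZ2 were at 1.90 and 0.51 in XIV-ubp6∆ and at 1.08 and 1.16 in disome XIV. SNO3 and SNO2 were at -0.40 and -0.16 in XIV-ubp6∆ and at 0.18 and 0.50 in disome XIV. THI5 and THI12, of the Thi5 family of thiamine pyrimidine synthesis, were at -0.09 and 0.04 in XIV-ubp6∆ and at 1.16 and 1.17 in disome XIV. DDI3 and DDI2, which encode identical cyanamide hydratases, were at 0.71 and 0.56 in XIV-ubp6∆ and at 1.79 and 1.85 in disome XIV. COS4 and COS1, of a subtelomeric membrane protein family, were at 1.22 and 1.91 in XIV-ubp6∆ and at 1.12 and 1.88 in disome XIV. AAD6 and AAD14, putative aryl-alcohol dehydrogenase genes, were at 0.93 and 0.40 in XIV-ubp6∆ and at 0.59 and 1.11 in disome XIV.

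Across all genes, the ones most like each SNZ gene were found by r of the deviations from the genotype mean, over at least 20 arrays. The arrays share references, dyes and slides. For SNZ1 these included PET122 (0.81), MTD1 (0.75), SRY1 (0.74) and SSU1 (0.74) among 5071 genes. MTD1 encodes a folate enzyme, SRY1 a hydroxyaspartate dehydratase that uses pyridoxal phosphate, and SSU1 a sulfite pump. For SNZ2 they were YGL081W, OYE3, ACH1, GND2 and PNC1, with r of 0.73 to 0.77 among 5049 genes. For SNZ3 they were NNR2, SBA1, YIL055C, YPL113C and PAL2, with r of 0.81 to 0.84 among 5563 genes. For SNO3 they were PET54, GPM2, OMS1, HSV2 and NTH1, with r of 0.68 to 0.75 among 1351 genes. SNO1 and SNO2 were measured on fewer than 20 arrays outside their own strain, and no gene was ranked for them.

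Other genes of vitamin B6 and of thiamine metabolism were tested with limma, separately in the disomes-ubp6∆ and in the disomes (mean against 0) and for the disome-ubp6∆ minus the disome of the same chromosome, with Benjamini-Hochberg adjustment over all genes. The p-values measure the spread between strains of 1 array each. An adjusted p under 0.05 was reached by 35.1% of 6005 genes in the disomes-ubp6∆ (13.9% higher and 21.2% lower than the reference), by 39.4% of 5852 genes in the disomes (14.8% higher and 24.6% lower) and by 34.2% of 5771 genes in the differences (16.2% higher and 18.0% lower in the disomes-ubp6∆). After centring of every array on the median of its genes outside the extra chromosome, the split was 1049 higher and 922 lower in the disomes-ubp6∆, against 832 and 1274 uncentred, and 1113 higher and 1135 lower in the disomes, against 864 and 1439 uncentred. With slide as a random block the counts of called genes fell to 579, 334 and 737. Neither the pairing nor this block separates genotype from slide, dye or reference in the differences.

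Vitamin B6 can also be taken up and recycled, and of the 4 genes for this TPN1 differed most between the genotypes. TPN1, the plasma membrane importer of pyridoxine, ranged between -0.93 and 0.46 (median -0.51) in the 12 disomes-ubp6∆, of which 11 were below 0. In the 12 disomes 11 were above 0, with a median of 0.51 and a highest value of 1.27. It fell in the disomes-ubp6∆ (mean -0.47, SE 0.10, limma adjusted p = 0.00344) and rose in the disomes (0.55, SE 0.11, limma adjusted p = 0.0018). TPN1 was lower in the disome-ubp6∆ in 12 of 12 pairs, by 1.02 on average (SE 0.09, limma adjusted p = 1.13e-05, and 0.000698 under the slide block). As Cy5 over Cy3, however, TPN1 was above 0 on average in both genotypes, and the part of the dye in its difference was not tested. With the slide block the limma adjusted p of TPN1 was 0.0588 in the disomes-ubp6∆ and 0.14 in the disomes. The call in the disomes was also lost with outlier spots kept (0.43, limma adjusted p = 0.0658) and with the deposited table (0.43, limma adjusted p = 0.0614), and held under 5 of 8 alternatives. BUD17, a pyridoxal kinase homolog, rose in the disomes-ubp6∆ (mean 0.28, limma adjusted p = 0.0211, and 0.157 with the slide block) and was at -0.15 in the disomes. As Cy5 over Cy3, BUD17 was below 0 on average in both genotypes. PDX3, the oxidase that makes pyridoxal phosphate in salvage, was at -0.06 and -0.07, and BUD16, a pyridoxal kinase, at -0.04 and -0.18, with no call in either genotype. Of the 4 genes, 1 rose and 1 fell in the disomes-ubp6∆, and 1 rose and 0 fell in the disomes. With the slide block 0 of 4 passed in either genotype.

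Among thiamine synthesis genes THI4, THI5 and THI12 rose in the disomes. Of 9 tested genes 0 rose and 1 fell in the disomes-ubp6∆, and of 8 tested genes 3 rose and 0 fell in the disomes, with medians of -0.05 and 0.12, beside -0.04 and -0.03 over all genes. The shares over all genes were 13.9% higher and 21.2% lower in the disomes-ubp6∆, and 14.8% higher and 24.6% lower in the disomes. THI4, which makes the thiazole part of thiamine, was at 0.23 in the disomes-ubp6∆ and rose to a mean of 0.51 in the disomes. THI5 was at 0.17 in the disomes-ubp6∆ and rose to 0.57 in the disomes. THI20, a kinase of the pyrimidine part, fell in the disomes-ubp6∆ (-0.28, limma adjusted p = 0.0424, and 0.0538 without XIV-ubp6∆) and was at 0.04 in the disomes, and THI6, which joins both parts, was at -0.14 and -0.11 with no call. In the test within pairs 4 of 8 genes were lower in the disomes-ubp6∆ and 0 were higher. The mean differences were -0.28 for THI4, -0.40 for THI5, -0.33 for THI12 and -0.32 for THI20 (limma adjusted p of 0.0356, 0.0102, 0.00557 and 0.0101). Without the pairs 0 of the 8 differences passed, so that of THI12 was lost as well as those of THI4, THI5 and THI20. The limma adjusted p of THI4, THI5 and THI20 was then 0.219, 0.0999 and 0.0837. With the slide block, 1 of the 8 differences (THI12) and 0 genes within either genotype passed. THI5 and THI12 belong to a family of near-identical genes, so their probes may share RNA.

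Thiamine uptake and regulator genes changed in both directions. THI7, the plasma membrane thiamine importer, rose in the disomes-ubp6∆ (0.40) and was at -0.05 in the disomes. THI73, a permease gene, was at -0.01 in the disomes-ubp6∆ and rose in the disomes (0.47). THI72, a relative of THI7, rose in the disomes-ubp6∆ (0.36) and was at 0.13 in the disomes, and PHO3, an acid phosphatase that frees thiamine from its phosphate, was at -0.18 and -0.07 with no call. Of the regulators, THI3 rose in the disomes-ubp6∆ (0.24) and fell in the disomes (-0.21), PDC2 was at -0.07 in the disomes-ubp6∆ and fell in the disomes (-0.34), and THI2 was at 0.20 and 0.19 with no call. Within pairs THI7, THI3 and PDC2 were higher in the disomes-ubp6∆, with mean differences of 0.45, 0.44 and 0.27, and THI73 was lower, with -0.47 (limma adjusted p of 0.00232, 0.000643, 0.00724 and 0.00448). With the slide block the calls within a genotype were lost for all of these but THI73 in the disomes (limma adjusted p = 0.0384), and of the differences that of PDC2 was lost (limma adjusted p = 0.0983). As Cy5 over Cy3, THI3 and THI7 were below 0 on average in both genotypes, and THI73 and THI20 were above 0 in both. The part of the dye was not tested.

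Genes under Gcn4, the activator of amino acid synthesis, and genes of stationary phase are listed because SNZ1 is known to be expressed under the conditions that induce them. Of 38 Gcn4 amino acid synthesis genes 4 rose and 8 fell in the disomes-ubp6∆, and 3 rose and 14 fell in the disomes, with medians of -0.08 and -0.17. Over all genes 13.9% rose and 21.2% fell in the disomes-ubp6∆, and 14.8% rose and 24.6% fell in the disomes. With the slide block 2 of the 38 fell in the disomes-ubp6∆, 1 fell in the disomes and 0 rose in either. Under that block 224 rose and 355 fell of all 6005 genes in the disomes-ubp6∆, and 82 rose and 252 fell of 5852 in the disomes. ARG3 and ARG1, of arginine synthesis, averaged -1.27 and -0.88 in the disomes-ubp6∆ and -1.11 and -0.70 in the disomes. LYS9 and LYS1, of lysine synthesis, averaged 0.57 and 0.83 in the disomes-ubp6∆ and 0.87 and 0.23 in the disomes, and LYS1 in the disomes was not past the threshold. LYS2, another gene of lysine synthesis, was low in the reference, as given above, and the part of this in the list was not tested. Of 19 stationary phase and stress genes tested in the disomes-ubp6∆ 10 rose and 1 fell, and of 18 tested in the disomes 9 rose and 0 fell, with medians of 0.40 and 0.58. With the slide block 2 rose in each genotype. HSP12, a stress-induced gene, averaged 1.19 in the disomes-ubp6∆ and 1.67 in the disomes. DDR2, also stress-induced, had a median of 1.03 in the disomes-ubp6∆ and 1.75 in the disomes and rose in both, while GSY1, a glycogen synthase, fell in the disomes-ubp6∆ (-0.53) and was at -0.47 in the disomes, and GPH1, glycogen phosphorylase, was at 0.33 and -0.26 with no call.

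**Figure D4:**
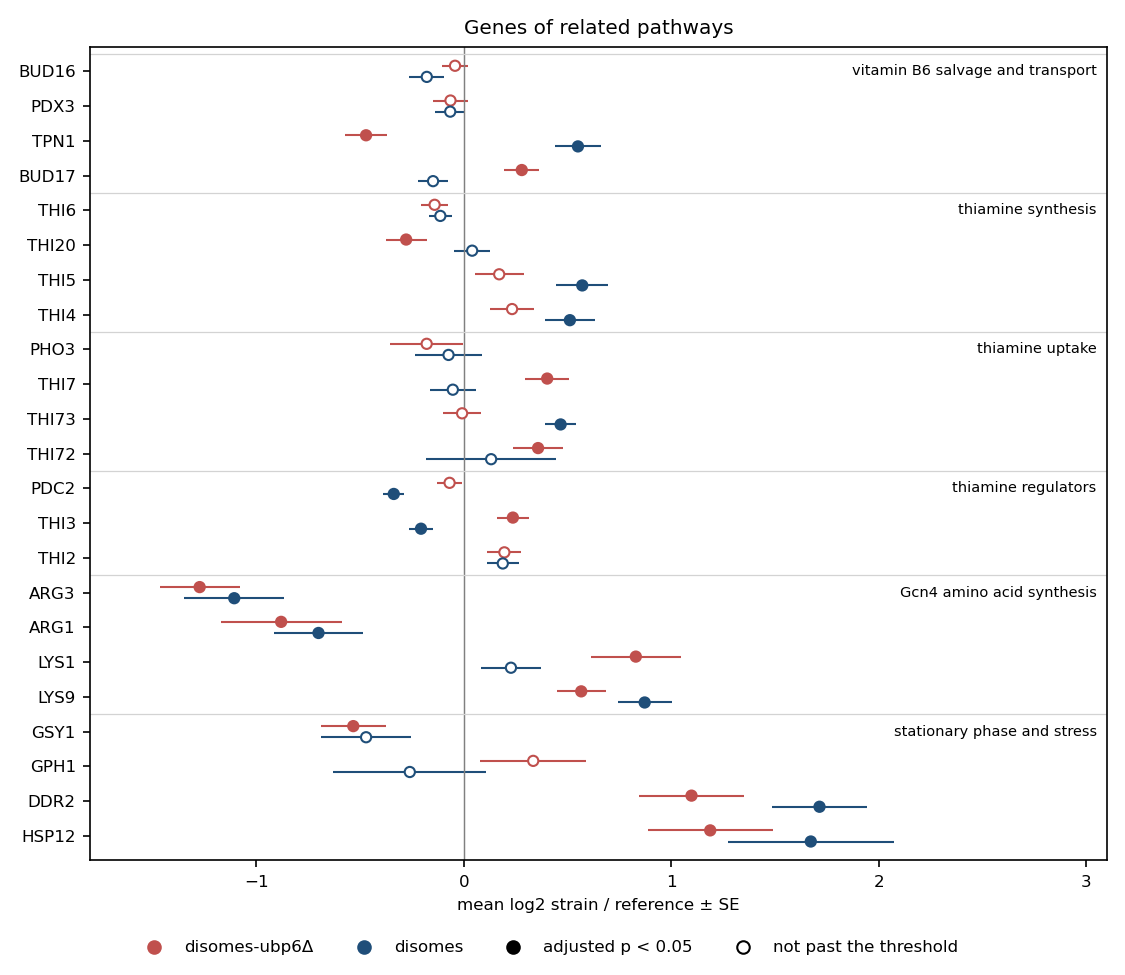
Mean log2 ratio of strain over reference (horizontal axis, bars are the SE from limma) of the named genes of each pathway, with disomes-ubp6∆ in red above disomes in blue and filled points past an adjusted p of 0.05. TPN1 lies at -0.47 in the disomes-ubp6∆ and 0.55 in the disomes.

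The 6 genes were also set against these lists by array. With the median of the Gcn4 amino acid synthesis genes, r was 0.57 for SNZ1, 0.62 for SNO1, -0.26 for SNZ2, -0.04 for SNO2, -0.06 for SNZ3 and -0.30 for SNO3. With the median of the stationary phase and stress genes, r was -0.02 for SNZ1, -0.16 for SNO1, 0.66 for SNZ2, 0.23 for SNO2, 0.47 for SNZ3 and 0.26 for SNO3. With the median of the thiamine synthesis genes, r was between 0.21 and 0.41 for all 6. With that of the thiamine regulators it was -0.13 for SNZ1, -0.47 for SNZ2 and -0.61 for SNZ3. For SNO1, SNO2 and SNO3 it was 0.02, -0.35 and -0.32. With the thiamine uptake genes, r was between -0.20 and 0.08 for all 6. With the vitamin B6 salvage and transport genes it was 0.17 for SNZ1, -0.37 for SNZ2 and -0.30 for SNZ3. For SNO1, SNO2 and SNO3 it was 0.32, 0.23 and 0.03. These are over 16 to 24 arrays that share references, dyes and slides, and are given as descriptions, and no difference between values of r was tested. In XIII-ubp6∆ and XV-ubp6∆, where SNZ1 was at -0.55 and -0.11, the Gcn4 genes had medians of -0.61 and -0.51, the lowest of the disomes-ubp6∆, and in XI-ubp6∆ the median was 0.11. Other arrays ran otherwise: I-ubp6∆, with SNZ1 at -0.17, had a Gcn4 median of 0.01, and IX-ubp6∆ and X-ubp6∆, with SNZ1 at 0.75 and 0.61, had medians of -0.27 and -0.26. XIII-ubp6∆ was not part of r. XII-ubp6∆, with a Gcn4 median of 0.61, had SNZ1 at 0.94, and disome XII, with 0.42, had it at 1.56.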

How the data were processed

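RNA of 24 strains was hybridised against a reference labelled wild-type. Feature Extraction software at its default settings turned the scans into spot values for the authors, with subtraction of background and normalization of the dyes. The deposited intensity values are signals and backgrounds of each spot in either dye, and its deposited log10 ratio sets processed Cy5 against Cy3. The authors' deposited table holds log2 ratios with direction and centring unstated; it followed the spot ratios with a median absolute difference of 0.00247 to 0.00327, with column medians of -0.04 to 0.01, and was used as an alternative.

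Log10 ratios were multiplied by 3.3219, the sign was turned on the disome-ubp6∆ arrays, spots flagged as outliers or not well above background in at least 1 dye were dropped, and the rest were averaged per probe, then per gene. Each SNZ and SNO gene had 1 probe with 2 spots. Genes were named through the locus tags of the R64 annotation (RefSeq). limma 3.58.1 in R 4.3.3 was used, leaving out a strain for genes on its duplicated chromosome, with at least 6 strains or pairs, and was tested on simulated data.

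The members and gene lists were chosen with earlier results of these data known. Named were the 6 genes, every vitamin B6 salvage gene, the 2 highest and 2 lowest of each other list by mean over both genotypes, the 2 nearest open reading frames on each side of a pair, and the 5 genes most like each member, of which 1 is not reported here. THI12, a neighbour, was also given with its list. Disomes and disomes-ubp6∆ were paired by the duplicated chromosome in the labels, which do not say whether one strain was made from the other; their deviations had r of -0.05 to 0.64 (above 0.1 in 11 of 12), and the main test of the difference was paired. Labels do not say how many cultures were grown per strain.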

Additional observations from a re-analysis of the deposited data

Results flagged for a closer look

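The difference between genotypes itself passed the test within pairs (limma, adjusted p under 0.05) for 11 genes named from the lists. It was -1.02 for TPN1, the pyridoxine importer, and 0.43 for BUD17. Among thiamine genes it was -0.40 for THI5, -0.28 for THI4, -0.32 for THI20, 0.45 for THI7, -0.47 for THI73, 0.44 for THI3 and 0.27 for PDC2. It was -0.28 for LYS9 and -0.62 for DDR2. Negative values are lower in the disomes-ubp6∆. Of these, TPN1, BUD17, THI7, THI73 and THI3 passed under all 10 alternatives, while THI20, THI5, THI4, PDC2, LYS9 and DDR2 did not. None of the alternatives separates genotype from slide, dye or reference. The SNZ and SNO genes had no such test, and groups of 12 strains were not examined for single outlying arrays.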

How the results depend on the processing

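The counts of called genes were 2106 in the disomes-ubp6∆, 2303 in the disomes and 1974 in the differences. They fell to 579, 334 and 737 with slide as a random block (correlation within slides of 0.18, 0.36 and 0.35), and to 1366 and 1528 in the disomes-ubp6∆ and the disomes with genes on the duplicated chromosome kept. Without the pairs (no replicate block) the difference gave 1458 genes, and LYS9 and DDR2 lost their call besides the thiamine genes named above. Without XIV-ubp6∆, chosen after seeing the data, the counts were 1867 in the disomes-ubp6∆ and 1733 in the differences. Means of the SNZ and SNO genes moved by more than 1 SD of the strains only by slide: SNZ2 averaged 0.95 and SNZ3 1.05 in the disomes of slide 2 alone, and SNO2 -0.52 and SNO3 -0.56 in the disomes-ubp6∆ of slide 3 alone. Smaller moves of over 1.5 times were seen in SNZ genes and in dim probes. SNZ1 averaged 0.96 in the disomes, with a median of 0.42, and averaged 1.49 on slide 2 alone. In the disomes-ubp6∆ of slide 3 alone SNZ1 averaged 0.57, SNZ2 0.13 and SNZ3 -0.14, against 0.86, 0.24 and 0.70 over both slides. The mean of SNO1 in the disomes, 2.07, was 0.91 under normexp with loess. That of SNO2, 0.46, was 0.13 under normexp with loess, 0.05 with no background filter and 0.21 with both dyes above background or from the deposited table. That of SNO3, 0.28, was 0.14, 0.18, 0.11 and 0.11 under the same settings. Under normexp with loess, r of SNZ1 with SNO1 was 0.84. Leaving out each strain in turn gave means of 0.63 to 0.97 for SNZ1 in the disomes-ubp6∆ and of 0.77 to 1.05 in the disomes. It moved a mean by over 1.5 times for SNO1 without XI-ubp6∆ (0.33 in the disomes-ubp6∆), SNZ2 without VIII-ubp6∆ (0.13), SNO2 without disome XII (0.21 in the disomes) and SNZ3 without disome XV (0.14). The means of SNO2 and SNO3 in the disomes-ubp6∆ were near 0, at -0.11 to 0.03 and -0.13 to -0.00. Both spots of SNZ3 were also taken alone, chosen after seeing the data, and each stayed within 1 SD. The pair differences with both dyes above background and under normexp with loess were also chosen after seeing the data. Dim signals limit SNO1, SNO2 and SNO3 on slide 1.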
